A study of Pan troglodytes with 38 samples.

Results

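The genes described here are the proteases that cut the extracellular matrix of the heart and the inhibitors that restrain them: matrix metalloproteinases (MMP), proteases of the ADAMTS family, the ADAMTS-like proteins (ADAMTSL) and the tissue inhibitors of metalloproteinases (TIMP). They were chosen by symbol alone, as every gene of the annotated chimpanzee count table named MMP, ADAMTS or ADAMTSL with a number, or TIMP1 to TIMP4. This gave 50 of 31373 genes: 4 TIMPs, 22 MMPs, 19 ADAMTS and 5 ADAMTSL genes. MMPs and ADAMTS proteases depend on zinc and are made as precursors with a propeptide, whose removal switches on the MMPs. ADAMTSL proteins lack the protease domain and bind microfibrils of the matrix. TIMPs block the active site of MMPs, and TIMP3, which itself stays bound to the matrix, also blocks several ADAMTS proteases.

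The data are polyadenylated RNA from post-mortem heart tissue of 38 chimpanzees, which form a single group by the labels and were measured as bulk tissue. By the sample table of the study they were 22 females and 16 males, 34 of them with an age at death, between 10 and 57 years. RNA of 17 animals was extracted in an earlier year (the earlier set) and RNA of 21 animals in 2018 (the 2018 set). The earlier set came from the Yerkes centre (9), the SNPRC centre (5) and other centres, and the 2018 set from Yerkes (12), SNPRC (8, of which 7 were positive for HBV or HCV) and a zoo. Libraries of the earlier set are noted as sequenced again from a previous study, so extraction year and library set cannot be told apart. Some of the animals are first-degree relatives, and all p-values treat the animals as independent.

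Levels are given as CPM, the annotated gene count scaled to the total of reads on orthologous exons, and these totals ran from 14408012 to 81603350 with a median of 41226039. The 8 cardiomyocyte markers were all found, and their summed level was 10605 to 114752 CPM with a median of 81712. Mitochondrially encoded genes took 17.2 to 34.98% of gene counts in the earlier set and 21.5 to 60.1% in the 2018 set. RIN, the integrity score of the extracted RNA, had a median of 6.2 in the earlier set and 5.4 in the 2018 set. The animals 537 and Little_R stood apart from the rest, and some of the results are also given without them. In bulk tissue, fewer cells of a type and less RNA per cell cannot be told apart.

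Of the 50 genes, 23 had a mean of at least 6 CPM: all 4 TIMPs, 5 MMPs, 9 ADAMTS and all 5 ADAMTSL genes. A further 7 had a mean between 1 and 6 CPM, and 20 lay under 1 CPM, 13 of those being MMPs. In 13 genes the median animal had 3 reads or fewer. Reads of TIMP genes made up 35.3 to 71.0% of all reads on the 50 genes (median 58.7%), with TIMP3 alone at 20.3 to 61.0% (median 44.1%). These are shares of reads and do not correct for gene length.

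**Figure D1:**
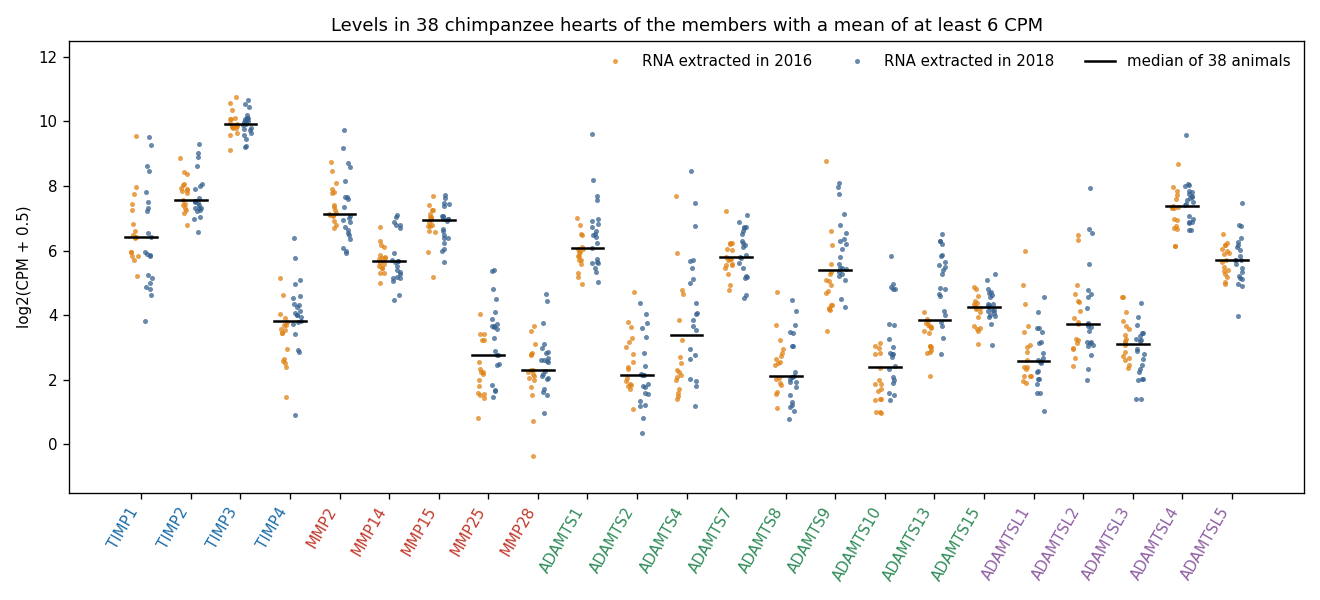
Levels of the 23 genes with a mean of at least 6 CPM, on the scale log2(CPM + 0.5), with 1 point per animal coloured by the year of RNA extraction and a bar at the median of 38 animals. TIMP3 lies within a narrow band around 962 CPM in all animals, while TIMP1, ADAMTS4 and ADAMTS9 spread over several log2 units.

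Among the inhibitors, TIMP3 was the steady one. Its lowest level was 548 CPM (animal 570), the median 962 CPM and the highest 1716 CPM (549), with a mean of 1012 ± 269 CPM (SD, n = 38). No animal exceeded 2 times the median, and 31 of 38 lay within 1.5-fold of it. TIMP2, which binds MMP14 at the cell surface and there takes part in the activation of MMP2, ran from 93.8 CPM through a median of 187 CPM to 625.1 CPM in 537, with 29 animals within 1.5-fold of the median.

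TIMP1, the inhibitor that is induced by many cytokines and carried in a complex with pro-MMP9, varied far more. It was lowest in 503 at 13.7 CPM, had a median of 84.7 CPM, and reached 739.7 CPM in 4x0025, 738 CPM in Little_R and 609 CPM in 537. Only 15 animals lay within 1.5-fold of the median and 10 exceeded 2 times the median. Per animal, the ratio of TIMP1 reads to TIMP3 reads went from 0.0155 in 503 to 0.793 in 4x0025, a range of 51.1-fold around a median of 0.0814. TIMP4, the TIMP with the most restricted tissue range and known for its presence in heart, had 1.38 CPM in 529, a median of 13.5 CPM and 83.6 CPM in 4X0354.

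By the RefSeq gene table of a newer assembly, TIMP1 overlaps SYN1, TIMP2 overlaps CEP295NL, TIMP3 overlaps SYN3 and TIMP4 overlaps SYN2. The library kit does not keep strand. These overlapping genes were low in the hearts, with highest levels of 6.05 CPM for SYN1, 0.666 CPM for CEP295NL, 2.27 CPM for SYN2 and 0.503 CPM for SYN3.

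Of the MMPs, the gelatinase MMP2 and the membrane proteases MMP14 and MMP15 were the 3 with the most reads. MMP2 ran from 59.7 CPM in 476 through a median of 141 CPM to 857 CPM in 537 and 583 CPM in 529. MMP14, which activates MMP2, ran from 21.7 CPM through 50.1 CPM to 138 CPM in 537. With library sizes scaled by TMM its highest level was 115 CPM, in Little_R. MMP15 was the steadiest of these, from 35.6 CPM in 570 through 123 CPM to 210.1 CPM in 4X0339. MMP25, a membrane protease known from leukocytes, had a median of 6.27 CPM and reached 41.6 CPM in 558 and 41.1 CPM in 537. MMP28 had a median of 4.44 CPM between 0.283 CPM in 570 and 24.8 CPM in 4X0354.

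The other gelatinase, MMP9, is stored in neutrophil granules. It had a mean of 4.41 ± 6.89 CPM (SD, n = 38), no read in 558, a median of 1.997 CPM, and 32.6 CPM in 4X0212, 21.7 CPM in 338 and 17.6 CPM in 529. The neutrophil collagenase MMP8 had a median of 1 read and at most 3 reads in 26 animals, against 4.21 CPM in 338. The interstitial collagenase MMP1 and the stromelysins MMP3 and MMP10 were near 0 in all animals but 4x0025, where they had 12.6, 0.929 and 2.57 CPM. The second-highest animals had 0.416 CPM of MMP1, 0.0964 CPM of MMP3 and 0.208 CPM of MMP10. Animal 4x0025 was highest of the 38 in TIMP1, MMP1, MMP3, MMP10 and ADAMTS8. MMP12, MMP13, MMP20 and MMP26 never exceeded 4 reads in any animal.

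The ADAMTS proteases with the most reads were ADAMTS1, ADAMTS7 and ADAMTS9. ADAMTS1, which cuts versican and aggrecan, ran from 30.8 CPM in 438 through 66.5 CPM to 774 CPM in 529, with 289 CPM in the next animal, 295. ADAMTS9, another versicanase, ran from 10.97 CPM through 41.4 CPM to 439 CPM in 570. ADAMTS4, an aggrecanase, had the widest spread of the 23 genes. Its lowest level was 1.79 CPM in 4X0267, its median 10.02 CPM, and 529, 570 and 495 had 353.7, 205 and 179 CPM. Only 6 animals lay within 1.5-fold of the ADAMTS4 median, and 13 exceeded 2 times the median. Reads that ADAMTS4 shares with an overlapping gene could not be told apart from its own.

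ADAMTS13, which cuts von Willebrand factor, ran from 3.86 CPM in 462 through 14.02 CPM to 91.0 CPM in 4X0339. ADAMTS15, a hyalectan-cutting protease, was among the steadiest, from 7.90 CPM through 18.4 CPM to 38.5 CPM. ADAMTS7, which cuts cartilage oligomeric matrix protein, ran from 22.9 CPM through 55.2 CPM to 148 CPM in 549. Medians of ADAMTS2, ADAMTS8 and ADAMTS10 were 3.94, 3.80 and 4.75 CPM, with highest levels of 25.6 CPM in 549, 25.6 CPM in 4x0025 and 56.1 CPM in 537. The lowest levels of these 3 genes were 0.784, 1.22 and 1.45 CPM.

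The ADAMTS-like genes were all present. ADAMTSL4, which binds fibrillin, ran from 69.3 CPM through 166 CPM to 765 CPM in 676, with 413 CPM in 570. ADAMTSL5 ran from 15.2 CPM in Little_R through 51.7 CPM to 178 CPM in 4X0354. ADAMTSL2, a partner of the latent TGF-beta binding protein LTBP1, ran from 3.46 CPM in 503 through 12.8 CPM to 244 CPM in 537, 102 CPM in 558 and 93.5 CPM in Little_R. ADAMTSL3 ran from 2.16 to 23.2 CPM with a median of 8.07 CPM. ADAMTSL1 had a median of 5.53 CPM between 1.53 CPM in 724 and 63.4 CPM in 4x0519, with 29.8 CPM in the next animal.

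The same reads had also been counted on exons orthologous between human and chimpanzee, and 7 members could be tied to that table by identifier. Exon lengths there allow an order of levels, here as CPM per kilobase. ADAMTSL4 was highest with a median of 22.5 (8.89 to 102), on 5513 bases of exon at chr1:128485289-128496138 of Pan_tro_3.0, plus strand. ADAMTS7 followed with 7.97 (1.37 to 36.3), then ADAMTS15 with 3.13 (1.34 to 6.80), ADAMTSL3 with 1.88 (0.904 to 6.40), ADAMTS4 with 1.05 (0.181 to 37.04), ADAMTS14 with 0.435 (0.0427 to 3.97) and MMP8 with 0.00631 (0 to 1.24). The ranges of neighbours in this order overlap.

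The median ratio of orthologous to annotated reads, over animals with more than 10 annotated reads, was 1 for ADAMTS14 and MMP8, 1.07 for ADAMTS4, 0.973 for ADAMTS15 and 0.763 for ADAMTSL4. It lay far from 1 for ADAMTS7, where 6 orthologous exons of 1032 bases in all, at chr15:59886060-59907613 on the minus strand, held 0.136 of the annotated count. For ADAMTSL3 the orthologous exons, 34 of them at chr15:64605785-65005705 on the plus strand, held 2.08 times the annotated count. Across the 38 animals the ADAMTS7 levels had a Pearson r of 0.73 and a Spearman rho of 0.72 between countings, given without a test since both count the same reads, against r = 0.91 for ADAMTSL3 and 0.988 or more for the other 5.

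Variation between animals was measured as dispersion: the natural logarithm of the negative binomial overdispersion of a gene, less the value that a smooth trend gives for genes of the same mean level. A value above 0 means more variation than is usual at that level. Of 13121 genes that reached 6 CPM in 1 animal or more, 44.9% lay above 0, with a median of -0.12. Among the 31 members that passed this filter, 26 lay above 0 and the median was 0.76. The filter admits a low gene through a single high animal, so that such genes had to vary. Of the 10676 genes with a mean of at least 6 CPM, 44% lay above 0, and of the 23 members among them 21 did, with a median of 0.91.

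ADAMTS4 had the highest dispersion of the members, 2.80 ± 0.29 (jackknife SE over 38 animals), at rank 68 of all genes. It was 3.21 in the earlier set alone and 2.66 in the 2018 set alone. TIMP1 followed with 2.24 ± 0.19 at rank 184, then ADAMTSL2 with 2.18 ± 0.39 (1.85 without 537 and Little_R) and ADAMTS9 with 2.07 ± 0.27. Next were ADAMTS13 with 1.72 ± 0.16 (0.08 in the earlier set alone and 1.36 in the 2018 set alone) and ADAMTS1 with 1.71 ± 0.62. The ADAMTS1 value fell to 1.10 without 529. All 5 ADAMTSL genes, 10 of 11 ADAMTS and 8 of 11 MMPs were above 0. The value of MMP1, 0.68 ± 2.10, turned to -1.45 without 4x0025.

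Among the TIMPs the spread was wide. TIMP4 had 1.32 ± 0.34 and TIMP2 0.76 ± 0.24, against -0.48 ± 0.25 for TIMP3. TIMP3 was 0.14 in the earlier set alone, -0.71 in the 2018 set alone and -0.23 without 537 and Little_R. With library sizes scaled by TMM, TIMP2 had 0.34 and TIMP3 -0.90. The other members below 0 were ADAMTS15 at -0.17 ± 0.26, MMP11 at -0.48 ± 0.21, MMP24 at -0.54 ± 0.29 and MMP16 at -0.59 ± 0.75. The value of ADAMTS15 turned to 0.05 without 537 and Little_R, and was 0.29 in the earlier set alone.

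**Figure D2:**
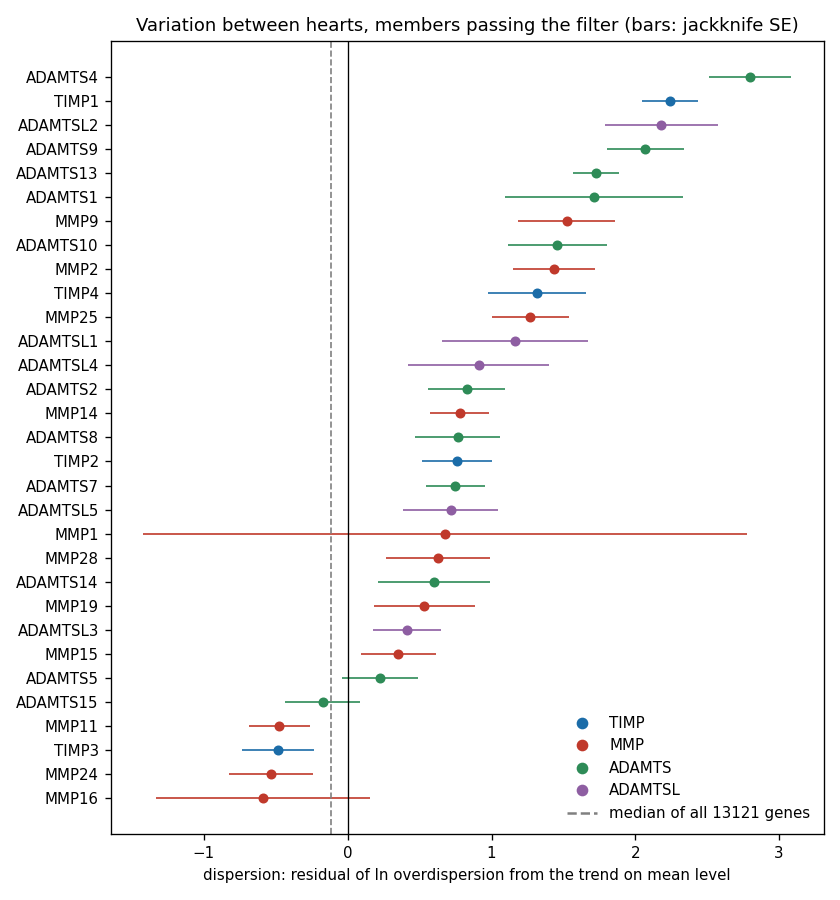
Dispersion of the 31 members that passed the filter, as points with bars of 1 jackknife standard error over 38 animals, coloured by family, with the median of all 13121 genes dashed. ADAMTS4 stands at 2.80 and TIMP1 at 2.24, while TIMP3 lies at -0.48.

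Levels were next compared between the 2018 set and the earlier set, with sex in the model. The sets are technical batches, but they also hold different animals, so technical and animal differences cannot be told apart. ADAMTS13, MMP21, ADAMTS10, MMP25 and ADAMTS1 were higher in the 2018 set, and no member was lower (edgeR quasi-likelihood test, Benjamini-Hochberg). These were 5 of the 36 members tested, or 13.9%, where 16.1% of all 15790 genes passed (11.2% higher and 4.82% lower), a share near the background. The 5 include MMP21, which is given as a description only, for a reason stated below. At an unadjusted p under 0.05 there were 8 members, where 30.8% of all genes reached it. DESeq2 called 6 members, all higher, with ADAMTS4 added (19.7% of all genes). Limma-voom called only MMP21 and ADAMTS13 (12.1% of all genes), so that the calls of ADAMTS10, MMP25 and ADAMTS1 were lost with it.

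ADAMTS13 had 3.86, 10.8 and 16.7 CPM as its lowest, median and highest level in the earlier set and 6.46, 38.4 and 91.0 CPM in the 2018 set. In 16 of the 21 animals of 2018 it lay above every earlier animal, and its log2 difference was 1.82 (SE 0.26, adjusted p = 1.12e-05). MMP21, a protease known for its role in left-right patterning of the embryo, was far lower, with 0.0273, 0.0964 and 0.200 CPM in the earlier set and 0.102, 0.408 and 1.39 CPM in the 2018 set. Here 15 animals of 2018 lay above all earlier ones, and the log2 difference was 2.09 (SE 0.33), on at most 37 reads per animal. MMP21 passed the filter on low counts only through the 2018 set, where it was high, so that it had to differ, and its difference is given as a description. It was not tested where at least 6 CPM in 1 animal was asked for. At least 15 such animals were seen in 0.608% of the 15790 genes.

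ADAMTS10, a fibrillin-binding protease, had medians of 3.14 and 6.45 CPM in the earlier and 2018 sets, with 8 animals of 2018 above all earlier ones, and a log2 difference of 1.54 (SE 0.33, adjusted p = 0.00127). MMP25 had medians of 4.18 and 11.3 CPM, with overlapping groups, and a log2 difference of 1.12 (SE 0.33, adjusted p = 0.0165). ADAMTS1 had medians of 61.5 and 87.9 CPM and a log2 difference of 0.80 (SE 0.26, adjusted p = 0.0327). Without 529, 558, 623 or 95A014 in turn ADAMTS1 was no longer called, and without 570 ADAMTS4 and ADAMTS9 were called in addition. ADAMTS13, ADAMTS10 and MMP25 were called in all 38 fits that left out 1 animal. MMP21 was too, but these fits keep the filter that it passed through the 2018 set.

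**Figure D3:**
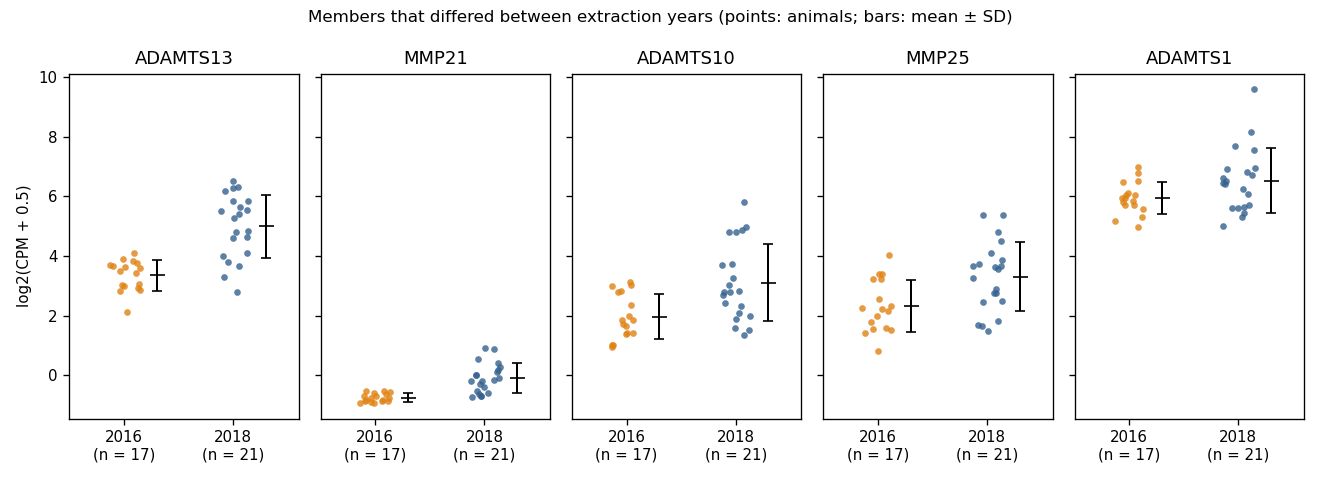
Levels of the 5 members that differed between extraction years, on the scale log2(CPM + 0.5), with 1 point per animal and the mean ± SD beside each group (17 earlier animals on the left of each panel and 21 of 2018 on the right). For ADAMTS13 and MMP21, 16 and 15 animals of 2018 lie above every earlier animal, and for MMP25 and ADAMTS1 the groups overlap.

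Other measures moved with extraction year. The median age at death was 36 years in the earlier set and 27 years in the 2018 set (17 animals with an age in each). The 7 animals noted as positive for HBV or HCV were all in the 2018 set. Besides the mitochondrial share and RIN, the summed adipocyte markers had medians of 236 CPM in the earlier set and 504 CPM in the 2018 set (120.1 to 978 and 195 to 1672 CPM). However, 4 of these 5 markers, PLIN1, ADIPOQ, LEP and CIDEC, had a median under 1 CPM. FABP4 had a median of 266 CPM over all animals, beside 268 CPM for the sum, so that this sum mostly gives FABP4. The red cell markers had medians of 130.5 and 375 CPM (0.907 to 2334 and 13.6 to 8942 CPM), and the 8 macrophage markers 205 and 90.4 CPM (88.2 to 847 and 35.7 to 439.6 CPM). With RIN in the model all 5 genes were still called. Among Yerkes animals alone MMP21 and ADAMTS13 were called, 2 of 37 members or 5.41%, where 2.08% of all genes were. In the 5 and 8 SNPRC animals no member was called, where 0.0376% of all genes were. With age in the model MMP21, ADAMTS10 and ADAMTS13 were called, 8.11% of members, where 9.65% of all genes were. MMP21 stands in these calls and shares as a description only, for the reason given above. No model held the virus notes, the mitochondrial share or the marker lists, so their part in these differences was not tested.

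The inhibitors did not pass this test. The log2 differences were 0.68 (SE 0.32, adjusted p = 0.1497) for TIMP4, -0.10 (SE 0.12) for TIMP3, -0.06 (SE 0.18) for TIMP2 and 0.07 (SE 0.43) for TIMP1. Of the 22 tested genes of the protease control list, which holds activators, other inhibitors and receptors, 3 were higher in the 2018 set and none was lower, with a median log2 difference of -0.001 beside -0.012 for all genes. These were ADAM33 (medians 14.7 and 40.6 CPM, log2 difference 2.46, SE 0.39, adjusted p = 3.98e-05), the matrix protein papilin, PAPLN (7.02 and 11.7 CPM, 1.13, SE 0.29, adjusted p = 0.00590) and ADAM15 (115.9 and 128 CPM, 0.50, SE 0.17, adjusted p = 0.0402). Of these 3, only ADAM33 was still called with limma-voom, in Yerkes animals alone or with age in the model. ADAM15 was also lost without 537 and Little_R, and none of the 3 was called in SNPRC animals alone. Of 24 tested substrates and other matrix genes only tenascin C, TNC, passed, and it was lower in the 2018 set (medians 5.02 and 3.33 CPM, highest 445.6 and 37.4 CPM, log2 difference -1.998, SE 0.70, adjusted p = 0.0446). Its highest level was in 4x0025. DESeq2 and limma-voom did not call TNC and called LTBP1 as lower instead. TNC was also not called with the orthologous exon total as library size or with age in the model. The median of that list was -0.17. VWF, the substrate of ADAMTS13, had medians of 735 and 677.5 CPM (log2 difference -0.17, SE 0.18, adjusted p = 0.549).

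Sex, RIN, age and centre gave no call among the members by edgeR. Between males and females 0 of 36 members passed, where 34 of 15790 genes (0.215%, with 0.158% higher and 0.057% lower in males) did. At an unadjusted p under 0.05 there were 6 members, all higher in males: TIMP2, MMP28, ADAMTS1, ADAMTS2, ADAMTS10 and ADAMTSL2, 6 of 36 where 8.42% of all genes reached it. ADAMTS1 came nearest, with a log2 difference of 0.99 (SE 0.26, adjusted p = 0.118), and DESeq2 called it alone (adjusted p = 0.0266), while limma-voom called none. None of the tested protease control (22) and matrix genes (24) passed, with medians of 0.23 and 0.61 beside -0.004 for all genes.

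For RIN, 0 of 38 members and 0 of 16462 genes (0%) passed, and 7 members had an unadjusted p under 0.05 (13.8% of all genes did). MMP16 had the smallest p, with 0.50 log2 per RIN unit (SE 0.14, adjusted p = 0.153), and DESeq2 called it alone among the members (1.25% of all genes). MMP16 was highest in Little_R and 537, with 6.11 and 1.85 CPM beside a median of 0.285 CPM, and without these animals its unadjusted p was not under 0.05. Limma-voom called none. For age, 0 of 37 members and 0 of 16309 genes (0%) passed by edgeR, and none of the members by DESeq2 or limma-voom. The 3 members with an unadjusted p under 0.05 were MMP25, MMP9 and ADAMTSL1, with slopes of -0.04 (SE 0.014), -0.06 (SE 0.023) and -0.03 (SE 0.015) log2 per year of age and adjusted p = 0.657 for each. Of all genes 7.41% had an unadjusted p under 0.05.

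Centre was compared within 2018, 8 SNPRC against 12 Yerkes animals, where the virus notes go with centre and cannot be told apart from it. None of 37 members and none of 16051 genes (0%) passed by edgeR, 1 member, MMP28, had an unadjusted p under 0.05 (2.73% of all genes did), and neither DESeq2 nor limma-voom called a member. The interaction of centre and year likewise gave 0 of 38 members and 0 of 16585 genes (0%). TIMP1 alone had an unadjusted p under 0.05 there (log2 interaction -2.36, SE 0.83, adjusted p = 0.512, with 8.15% of all genes), and neither DESeq2 nor limma-voom called a member.

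Which members moved together across the 38 hearts was asked of 43 relations, each with Pearson's r and Spearman's rho of log2(CPM + 0.5) and two-sided permutation tests (100000 permutations), adjusted over the 43. With Pearson's r 31 passed, 30 of them positive. With rho 28 passed, and 26 passed with both.

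RNA levels of MMP14, TIMP2 and MMP2, whose proteins meet at the cell surface, rose together over the pooled hearts. They did so less within the earlier set than within the 2018 set. MMP2 and TIMP2 had r = 0.79 and rho = 0.71 (permutation tests, adjusted p = 3.07e-05 and 3.31e-05), 0.39 within the earlier set and 0.92 within the 2018 set, and 0.70 without 537 and 529. MMP14 and MMP2 had r = 0.76 and rho = 0.77 (permutation tests, adjusted p = 3.07e-05 and 3.31e-05), with r of 0.33 within the earlier set and 0.86 within the 2018 set, and 0.69 without the 2 farthest animals. MMP14 and TIMP2 had r = 0.66 and rho = 0.60, but 0.16 within the earlier set and 0.82 within the 2018 set, and 0.54 without 537 and Little_R. In the normalized matrix of the authors, which lacks 1 animal, MMP2 and TIMP2 had r = 0.25 and MMP14 and TIMP2 had r = -0.004, neither past the threshold, while MMP14 and MMP2 had r = 0.45 and passed.

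All 3 genes went with the fibroblast markers (DCN, LUM, PDGFRA, 3 collagens, FBLN1 and TCF21). The values of r were 0.86 for MMP2, 0.88 for TIMP2 and 0.57 for MMP14, and 0.88 for ADAMTS2, the procollagen N-proteinase that trims the collagens of that list. Within the earlier and 2018 sets they were 0.66 and 0.91, 0.82 and 0.90, 0.12 and 0.70, and 0.92 and 0.87. Without 537 and 529 they were 0.80, 0.84, 0.44 and 0.87. The summed fibroblast markers ran from 679 to 11553 CPM, highest in Little_R. The part of fibroblast content in the relations among MMP14, TIMP2 and MMP2 was not tested.

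**Figure D4:**
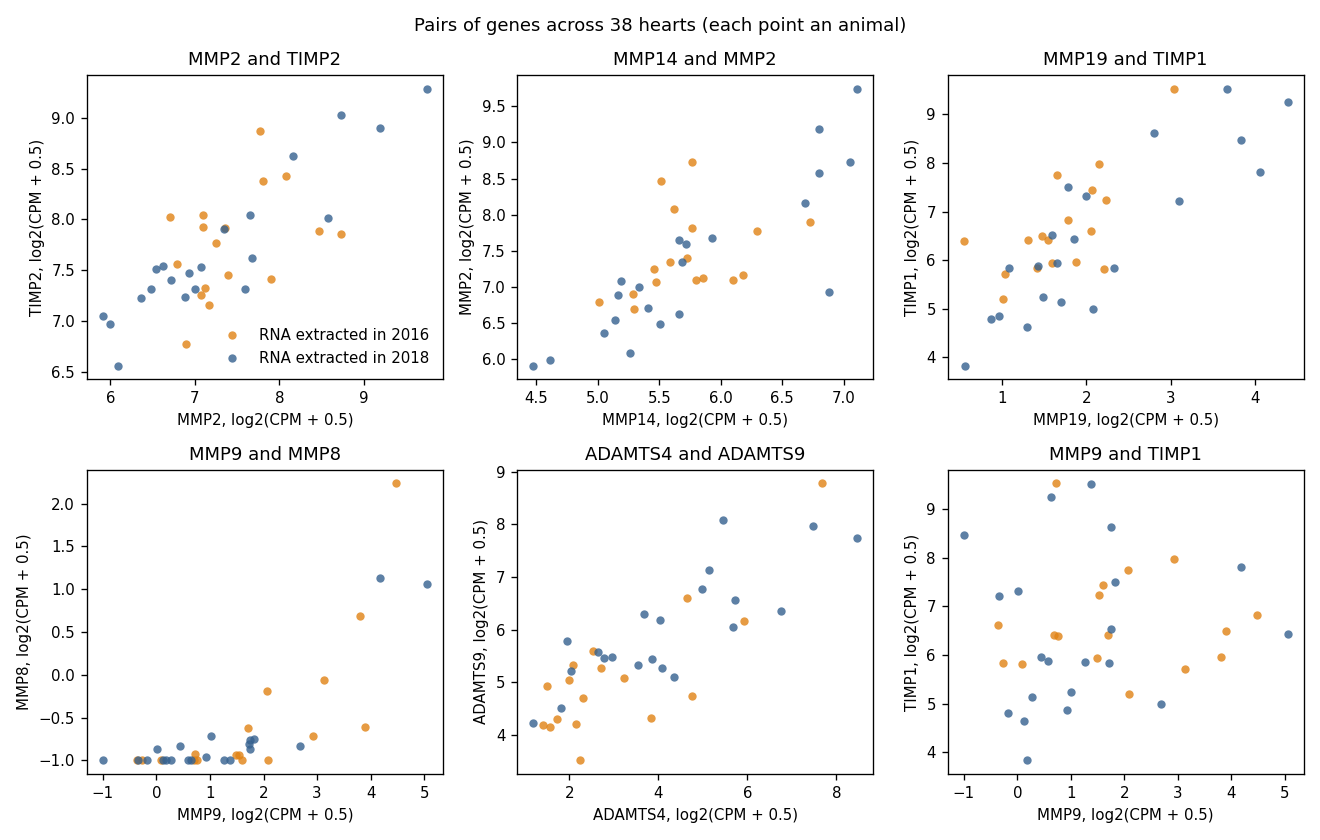
Levels of 6 pairs of genes on the scale log2(CPM + 0.5), with 1 point per animal coloured by extraction year. MMP2 with TIMP2 and ADAMTS4 with ADAMTS9 rise together (r of 0.79 and 0.82), MMP8 lies at or near 0 reads in 26 of the 38 animals, and MMP9 with TIMP1 shows no relation (r of 0.08).

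TIMP1 went with MMP19, a protease of basement membrane components, with r = 0.78 and rho = 0.72 (permutation tests, adjusted p = 3.07e-05 and 3.31e-05), 0.70 within the earlier set, 0.86 within the 2018 set and 0.77 without 537 and 529. TIMP1 and the fibroblast markers had r = 0.62 (0.37 and 0.71 within the sets), and TIMP1 and ADAMTS4 r = 0.57 (0.49 and 0.70). TIMP1 with the macrophage markers had r = 0.37 (0.17 and 0.52). With the neutrophil and monocyte markers TIMP1 had r = 0.40 and rho = 0.56 (permutation tests, adjusted p = 0.0222 and 0.000717), with r of 0.08 within the earlier set and 0.59 within the 2018 set, and 0.33 with TMM scaling, no longer past the threshold. It did not pass with MMP9 (r = 0.08, rho = 0.17) or with TIMP4 (r = 0.12, rho = 0.15).

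ADAMTS1, ADAMTS4 and ADAMTS9 rose together over the pooled hearts. Of the 12 relations that the normalized matrix holds, however, only 4 passed in it, where 10 had passed in the counts. ADAMTS4 and ADAMTS9 had r = 0.82 and rho = 0.78 (permutation tests, adjusted p = 3.07e-05 and 3.31e-05), with r of 0.80 within the earlier set, 0.82 within the 2018 set, 0.77 without 529 and 570, and 0.75 in the normalized matrix. ADAMTS1 had r = 0.68 with ADAMTS4 (0.40 and 0.77 within the years) and 0.63 with ADAMTS9 (0.55 and 0.65). The aggrecanase ADAMTS5, the neighbour of ADAMTS1 on its chromosome, had r = 0.40 with it (0.05 and 0.55), past the threshold with r but not with rho (permutation tests, adjusted p = 0.0201 and 0.0545).

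MMP9 and MMP8 went with the neutrophil and monocyte markers S100A8, S100A9, S100A12, CSF3R, CXCR2 and FPR1, whose sum ran from 4.49 to 714 CPM, highest in 338. S100A12 and CXCR2 had medians under 1 CPM. The values were r = 0.79 for MMP9 (0.92 within the earlier set, 0.66 within the 2018 set, 0.73 without 338 and 4x0519) and r = 0.73 for MMP8 (0.74 and 0.72, and 0.72 without these animals). MMP9 and MMP8 had r = 0.78 with each other, with 26 of 38 animals at 3 reads of MMP8 or fewer. MMP25 had r = 0.39 with these markers, 0.76 within the earlier set and 0.48 within the 2018 set.

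TIMP3 had r = 0.59 with the smooth muscle and pericyte markers (0.42 and 0.70 within the years) and r = -0.43 with the cardiomyocyte markers. The latter was -0.29 without 537 and Little_R, and -0.04 with library sizes scaled by TMM. TIMP2 and TIMP3 had r = 0.44, past the threshold with r but not with rho (permutation tests, adjusted p = 0.0107 and 0.120). TIMP4 did not pass with the cardiomyocyte (r = -0.03), adipocyte (r = 0.11) or TIMP1 levels, and with TIMP3 it had r = 0.33 and rho = 0.37 (permutation tests, adjusted p = 0.0602 and 0.0393). ADAMTS7 with smooth muscle markers (r = -0.16), MMP19 with macrophage markers (r = 0.16) and ADAMTS4 with neutrophil markers (r = 0.29) did not pass. ADAMTS1 and ADAMTS9 had r = 0.39 each with the endothelial markers, and with TMM scaling 0.21 each, no longer past the threshold.

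With several members, the share of reads on mitochondrial genes had r of opposite sign within the 2 sets. TIMP1 had r = -0.61 with it within the earlier set and 0.62 within the 2018 set, TIMP2 -0.35 and 0.64, and MMP2 -0.33 and 0.72. Neither these values within the sets, on 17 and 21 animals, nor the difference between the sets was tested. Pooled over 38 animals r was 0.29, 0.35 and 0.43, and 0.06, 0.09 and 0.22 without 537 and Little_R, where none passed. The pooled rho values were 0.06, 0.06 and 0.16 (permutation tests, adjusted p = 0.726, 0.726 and 0.383), so that TIMP2 and MMP2 passed with r alone. TIMP3 (0.32 and 0.28) and TIMP4 (0.31 and 0.18) had the same sign in both sets and did not pass with r when pooled, while TIMP4 passed with rho (0.43, permutation test, adjusted p = 0.0138).

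**Figure D5:**
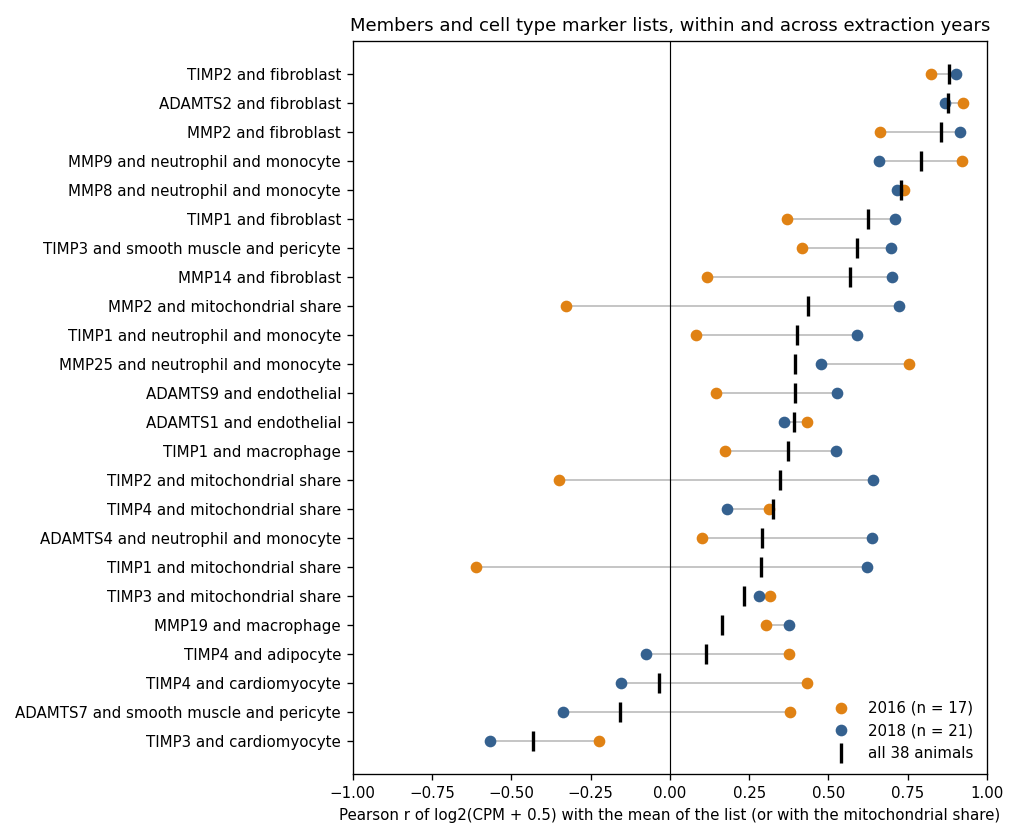
Pearson r across animals of members with the mean log2(CPM + 0.5) of cell type marker lists, or with the mitochondrial share, for all 38 animals (ticks) and within each extraction year (points). TIMP2, ADAMTS2 and MMP2 with the fibroblast markers lie at 0.86 to 0.88, and TIMP1, TIMP2 and MMP2 with the mitochondrial share have opposite signs in the earlier and 2018 sets.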

How the data were processed

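RNA-seq libraries of heart tissue from 38 chimpanzees were analysed, and the values of both kinds of deposited table used here, a count and a score, are described first. The annotated gene count table was deposited by the authors as raw counts of 31373 genes, made with STAR 2.6.1b on Pan_tro_3.0 with Ensembl annotation. The orthologous exon count table was deposited as raw counts of 44125 genes from featureCounts 1.6.3. The normalized matrix deposited by the authors holds a score per gene for 37 animals and 13545 genes, log CPM standardized per gene and quantile normalized in each animal. The human table and 1 further chimpanzee were not used here (52 columns of per-sample values).

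Symbols came from a table of identifiers (18040 of the 31373 genes). Gene counts were divided by the orthologous exon total of the animal to give CPM. Extraction year, sex, RIN, age and centre came from the sample table of the study, not from the labels. Comparisons were fitted over all genes that filterByExpr kept with the quasi-likelihood test of edgeR 4.0.16 in R 4.3.3 (TMM scaling, adjustment by Benjamini-Hochberg, threshold 0.05), with DESeq2 1.42.0 and limma 3.58.1 as alternatives. In data simulated for the extraction year comparison (15790 genes), 71% of 100 genes changed 2-fold and 95% of 100 changed 4-fold were recovered, and 10 unchanged genes were called. Dispersion was the residual from a LOESS trend (degree 1, span 0.75). Relations used log2(CPM + 0.5) and 100000 permutations, whose smallest possible p is 1e-05.

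Low, median and high values are given for the TIMPs, for members with a mean of at least 6 CPM and for members past a threshold. Other members with values (MMP1, MMP3, MMP8, MMP9 and MMP10) are given as examples of the range. Genes of the pathway lists are named where they passed in the year or age comparison, while VWF and the genes that overlap members were named after their values were seen. The members and lists were chosen with earlier results of these data known. Alternatives were other library sizes, filters, tools, covariates and sets of animals. The fits with age in the year model, SNPRC animals alone, 1 animal left out, mitochondrially encoded genes left out, or only genes with a mean of at least 6 CPM were added after seeing the data. A few results on genes outside the family are not reported here.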

Additional observations from a re-analysis of the deposited data

Results flagged for a closer look

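Levels of the 23 members with a mean of at least 6 CPM were tested for animals far from the others, on the scale log2(CPM + 0.5), within the 3 groups of 1 centre and 1 extraction year that hold 4 to 10 animals (Yerkes and SNPRC of the earlier set, and SNPRC of the 2018 set). Of 69 such groups 5 held an animal whose gap to the next one was too large a part of the range, where chance marks about 1 in 20. Among the 9 Yerkes animals of the earlier set, 570 was high in ADAMTS4 (205 CPM, next 13.8 CPM) and in ADAMTS9 (439 CPM, next 29.9 CPM). Among the 5 SNPRC animals of the earlier set, 4x0519 was high in ADAMTSL1 (63.4 CPM, next 4.49 CPM) and in TIMP3 (1069 CPM, next 933 CPM), and 4x0430 was high in ADAMTSL4 (194 CPM, next 163 CPM).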

How the results depend on the processing

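The number of members called for extraction year, 5, or 13.9% beside 16.1% of all genes, became 9 with no filter on low counts (13.8% of all genes), 3 with age as a covariate (9.65%), 2 with limma-voom (12.1%), 2 in Yerkes animals alone (2.08%) and 0 in SNPRC animals alone (0.0376%), and was 4 to 7 when 1 animal was left out, where 2145 to 2928 genes were called. Without the filter ADAMTS16 was added as higher and MMP1, MMP3 and MMP10 as lower in 2018. Most reads of the lower genes came from 1 earlier animal, 4x0025: 461 of 570 for MMP1, 34 of 42 for MMP3 and 94 of 105 for MMP10. Medians in the earlier and 2018 sets were 0.0486 and 0.0467 CPM for MMP1, and 0 CPM in both for MMP3 and MMP10. DESeq2 called 1 member for sex (0.64% of all genes) and 1 for RIN (1.25%), where edgeR called 0. Of both pathway lists together 4 genes were called for year, against 7 with no filter, 2 with limma-voom, 1 in Yerkes animals alone and 0 in SNPRC animals alone. Of the 12 relations that the normalized matrix holds, 4 passed in it, where 10 had passed in the counts. Signs turned, among relations that had not passed, for TIMP1 and TIMP4 (-0.0049 with TMM and -0.0092 without 537 and Little_R), for TIMP4 and cardiomyocyte markers (0.0896 with TMM, 0.165 without these animals and 0.0191 with year means removed) and for ADAMTS7 and smooth muscle markers (9.77e-05 without these animals), and, among those that had passed, for MMP14 and TIMP2 (-0.0045 in the normalized matrix). The cause was not tested. The other 70 alternative values of these counts, of the levels and of the median dispersion stayed within 1.5 times the reported count or within 1 SD. They do not cover the highest levels, which depend on the library size. With TMM the highest level in 537 fell from 857 to 641 CPM for MMP2 and from 625 to 468 CPM for TIMP2. The highest animal changed with TMM for MMP14, TIMP3, MMP28 and ADAMTS15. Of single relations 154 alternatives kept sign and side of the threshold, 19 fell short of it and 4 passed it. Of single dispersion values 143 alternatives stayed within 1 standard error and 34 did not. Of single genes called for year 46 kept the call and 13 lost it, with no change of sign. No paired analysis was made, as the labels name no pairs of samples. The titles 554 and 554_2 share a number. They have separate entries in the sample table of the study (RIN 7.3 and 5.4) and were taken as 2 animals. At the lowest total depth, levels under 1 CPM rest on few reads, and 13 members had 3 reads or fewer in the median animal.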
